A study of Mus musculus with 12 samples.

Results

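Tktl1 and Capn11, together with their relatives in the transketolase and calpain families, were followed through the RNA-seq libraries. The set held 10 of the 38720 genes listed. Tktl1 and Capn11 were chosen by the size of their rise in Ezh2-deficient retinal ganglion cells (RGCs), while the other 8 genes (Tkt, Tktl2, Capn1, Capn2, Capn5, Capn6, Capn7 and Capn10) were selected as family members. All 10 were listed in both the RGC and the non-RGC table. The RGC values of Tktl1 and Capn11 are therefore given as a description with no test, and tests are given for their values in non-RGCs and for the 8 relatives.

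The libraries came from retinas of P0 pups of strain C57/BL6. The knockout (mKO) pups carried Math5-Cre together with homozygous floxed Ezh2, which loses the exons for the catalytic SET domain where Cre is active, and the controls were labelled wild type (WT); the study's methods give littermates with floxed Ezh2 and no Cre as the usual control. Retinas were dissociated and RGCs were taken out with magnetic beads against CD90 (Thy-1), and the cells left behind are called non-RGCs. Each genotype and fraction had 3 libraries from separate RNA extractions, with 10600964 to 13014004 reads on genes in RGCs and 7139633 to 12828281 in non-RGCs. The libraries of each group are lettered by depth, with A the deepest and C the shallowest, and the labels do not tie the 2 fractions to shared pups, so that RGCs and non-RGCs may come from the same retinas. Math5 marks the lineage of RGCs, and Math5-Cre is active in only a part of them. In RGCs, Ezh2 itself stood at 1354, 1476 and 1443 normalized reads in mKO and 1190, 1206 and 1678 in WT (adjusted p = 0.637, limma). A count over the whole gene does not resolve the floxed exons. For P0 mKO RGCs the study reported less Ezh2 by qPCR and by Western blot. It also reported a change of Ezh2 in its RNA-seq of these cells, beside Cre activity in only part of the RGCs. The normalized reads given above overlapped between the genotypes. The 12 RGC markers summed to 2059 to 2766 CPM (reads of a gene scaled to the total reads on genes of the library) in RGC libraries and 512.5 to 814 in non-RGC libraries, so that some RGC RNA was present in both fractions. Kidney genes were called lower in mKO (5 of 6 tested in RGCs and 4 of 6 in non-RGCs, against 21.2% and 6.43% of all genes). The 5 blood genes were called higher in both fractions, where 16.3% of all genes in RGCs and 4.18% in non-RGCs were. RNA of both sexes was present in every library.

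Transketolase, encoded by Tkt, uses thiamine diphosphate to move carbon units between sugars in the non-oxidative branch of the pentose phosphate pathway. Tktl1 and Tktl2 encode transketolase-like proteins. Calpains are calcium-dependent cysteine proteases that cut their substrates at a limited number of sites, and in neurons they are best known for cleaving cytoskeletal proteins during growth, plasticity and injury. Capn1 and Capn2 encode the large subunits of the classical enzymes, which pair with the small subunit Capns1 and are inhibited by calpastatin (Cast). Capn11 is a calpain best known from testis, and Capn5, Capn6, Capn7 and Capn10 lack the classical calcium-binding domain.

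Tktl1 lies on chromosome X from 74177259 to 74208500 on the plus strand, and Capn11 on chromosome 17 from 45630204 to 45659325 on the minus strand (GRCm38). The promoters of both genes are shown because these 2 genes were chosen for their rise, and the windows differ in CpG content. Each sequence is from RefSeq (GRCm38.p6), runs from 250 bases before to 50 bases after the start site on the gene's strand, and has its CpG dinucleotides in capitals. The Tktl1 window is chrX:74177009-74177308 (plus strand) and the Capn11 window is chr17:45659260-45659559 (minus strand).
Tktl1: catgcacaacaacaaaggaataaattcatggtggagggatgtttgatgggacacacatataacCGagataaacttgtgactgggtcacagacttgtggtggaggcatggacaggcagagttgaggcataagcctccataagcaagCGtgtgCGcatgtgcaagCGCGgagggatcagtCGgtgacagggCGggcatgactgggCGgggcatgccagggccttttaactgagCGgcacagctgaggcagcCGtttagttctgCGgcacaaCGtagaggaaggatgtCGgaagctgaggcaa
Capn11: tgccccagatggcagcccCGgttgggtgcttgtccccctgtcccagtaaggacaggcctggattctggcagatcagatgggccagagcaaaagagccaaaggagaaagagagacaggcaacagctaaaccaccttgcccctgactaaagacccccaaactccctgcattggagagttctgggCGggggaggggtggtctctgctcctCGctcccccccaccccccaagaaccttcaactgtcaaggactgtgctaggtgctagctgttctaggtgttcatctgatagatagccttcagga
The Tktl1 window held 13 CpG sites, more than 62.1% of the 32851 promoters in the same table, with an observed over expected ratio of 0.636. The Capn11 window held 3 CpG sites with a ratio of 0.122, and 23.3% of all promoters held fewer. The median promoter held 7. RefSeq windows were found for 9 of the 10 genes, all but Capn5. Among the relatives, the window of Capn6 held 5 CpG sites, and those of Tkt, Tktl2, Capn1, Capn2, Capn7 and Capn10 held 14 to 27.

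Tktl1 was nearly silent in WT RGCs and present in every mKO library. The mKO RGC libraries A, B and C held 19, 13 and 50 reads of Tktl1, against 2, 1 and 0 reads in WT. All mKO libraries lay above all WT libraries, and library C carried most of the mKO signal. The mean was 25.2 ± 19.1 normalized reads (SD, n = 3) in mKO, with every WT library at or under the floor of 3 reads. The ratio of means was 24.3-fold, and the 82 reads against 3 have a 95% exact counting interval of 8.26-fold to 124-fold at equal depth, which covers counting error and not the spread between libraries. The ratio was 13.8-fold without mKO library C, 46.4-fold without WT A and 16.2-fold without WT C.

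Capn11 was low but detected in WT RGCs. The mKO libraries A, B and C held 13, 92 and 106 reads of Capn11, and the WT libraries held 6, 2 and 2. Library A of mKO lay close to the highest WT library, while libraries B and C were far above it. The means were 65.3 ± 47.3 normalized reads in mKO and 3.53 ± 2.21 in WT (SD, n = 3), an 18.5-fold ratio with 2 of the 3 WT libraries at or under the floor of 3 reads. Summed over the group, 211 reads against 10 have a 95% exact counting interval of 10.3-fold to 40.8-fold at equal depth, and without WT library A the ratio of means was 29.0-fold. The mKO library with the most Tktl1 (C) was also the one with the most Capn11, but library B had the least Tktl1 and a high level of Capn11. On the log2(normalized reads + 1) scale the differences were 3.59 for Tktl1 and 3.49 for Capn11, and this scale understates changes of genes with few reads.

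In non-RGCs, which were not used to choose them, both genes were again higher in mKO. Tktl1 had 21, 21 and 13 reads in the mKO non-RGC libraries A, B and C, against 5, 6 and 0 in WT. The groups did not overlap after scaling, with 16.2 to 20.1 normalized reads in mKO and 0 to 5.81 in WT. The log2 difference was 2.52 (SE 0.696, 95% interval 0.96 to 4.07, limma adjusted p = 0.0481).

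For Capn11, the mKO non-RGC libraries held 26, 68 and 39 reads, and the WT libraries 3, 3 and 18. WT library C was close to mKO library A (18.77 and 20.03 normalized reads), and the groups still did not overlap. The log2 difference was 2.70 (SE 0.690, 95% interval 1.15 to 4.24, limma adjusted p = 0.0378). Among the 15326 genes tested in non-RGCs, 4.18% were called higher and 6.43% lower, and every mKO library lay above every WT library for 17.5% and below for 19.2%. Both genes passed the limit of 10 normalized reads only through the mKO group, and both were also called when the limit was set on the mean over all 6 libraries. That mean also rested mostly on mKO, with group means of 18.2 against 3.44 for Tktl1 and 46.8 against 8.13 for Capn11. The calls were close to the threshold: leaving out any library but WT C ended that of Tktl1 (adjusted p = 0.0511 to 0.16, and 0.0354 without WT C), and leaving out mKO B, mKO C, WT A or WT B ended that of Capn11 (0.0821 to 0.149, and 0.0151 and 0.031 without WT C or mKO A).

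**Figure D1:**
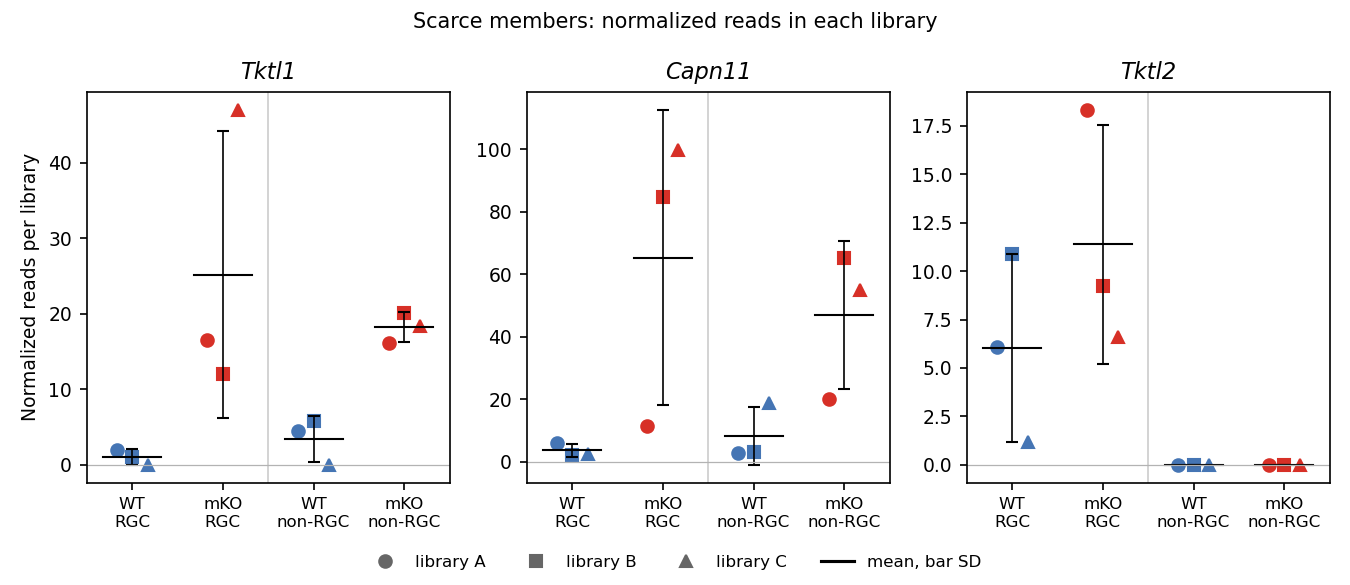
Normalized reads (reads divided by the authors' size factor) of Tktl1, Capn11 and Tktl2 in each of the 12 libraries, by genotype and fraction; symbols mark libraries A, B and C, lines the mean and bars the SD, and the 2 fractions were scaled separately. Tktl1 and Capn11 were higher in every mKO library than in any WT library of the same fraction, and Tktl2 had no reads in non-RGCs.

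The levels of both genes overlapped between the 2 mKO fractions. Tktl1 averaged 2.18 CPM in mKO RGCs and 1.83 in mKO non-RGCs, and Capn11 averaged 5.65 and 4.70, with overlapping libraries in both cases. RGC markers were also higher in mKO than in WT non-RGCs, with 8 of 12 called where 4.18% of all genes were. After the trends of each library along GC content and read coverage of the genes were removed, 5 were called. The marker sums were 608 to 814 CPM in mKO and 512.5 to 539 in WT, against 2059 to 2130 in mKO RGCs. Single markers differed by more than the sum, with log2 differences of 3.86 for Thy1, the target of the beads, and 1.72 for Pou4f2, while Tubb3 had one of -0.53 and was not called. Pigment-cell genes were called higher in mKO in 3 of 4 tested in non-RGCs (4.18% of all genes) and 2 of 4 in RGCs (16.3% of all genes). With the same trends removed, 2 were called in non-RGCs and 1 in RGCs. The pigment-cell sums were 1181 to 1342 normalized reads in mKO against 302 to 526 in WT in non-RGCs, and 389 to 562 against 197 to 268 in RGCs. The part of RGC or pigment-cell RNA in the non-RGC values of Tktl1 and Capn11 was not tested. In bulk libraries fewer cells of a type and less RNA per cell cannot be told apart.

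Tktl1 lies on the X chromosome, and the sex makeup of the pools varied. Xist, the RNA of the inactive X, stood at 4909, 4643 and 7160 normalized reads in mKO RGCs and at 1195, 3465 and 2108 in WT, so that mKO library C was highest in both Xist and Tktl1 (Xist log2 difference 1.41, adjusted p = 0.0222, limma). The 4 Y-linked genes summed to 1211, 1707 and 1547 in mKO RGCs and 1858, 617 and 1949 in WT. In non-RGCs Xist stood at 5597, 5683 and 3303 in mKO and 2559, 3494 and 4835 in WT, with overlapping groups. The part of the sex makeup in the values of Tktl1 was not tested.

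None of the tested chromosomal neighbours of Tktl1 and Capn11 was called higher in mKO, where 16.3% of all RGC genes were called higher and 21.2% lower. Of the 10 genes with reads nearest to Tktl1, within 153341 bases, 6 were tested in RGCs. None was called higher and 2 were called lower, Emd (log2 difference -0.42, adjusted p = 0.015) and Rpl10 (-0.42, adjusted p = 0.00788), and in non-RGCs none of the 6 was called. Of the 10 genes nearest to Capn11, within 75181 bases, 5 were tested in RGCs. Again none was called higher, and Hsp90ab1, Tmem63b, Slc29a1 and Mrpl14 were called lower, by log2 differences of -0.39 to -0.54. Tmem63b, which lies 846 bases from Capn11, stood at 2055 normalized reads in mKO and 2870 in WT (adjusted p = 0.00116). In non-RGCs none of these 5 was called.

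Other genes followed the library pattern of Tktl1 and Capn11 more closely than either followed the other. Over the 12 libraries, across 16517 genes, the Pearson correlation of log2(CPM + 1) between Tktl1 and Capn11 was 0.792, which ranked Capn11 at 563 among the genes most like Tktl1 and Tktl1 at 184 among those most like Capn11. Those most like Tktl1 were Ttn (0.938), Gm26530, 2810055G20Rik, Tmem30c and Gm13704 (all at or above 0.931). Those most like Capn11 were Gm10643 (0.938), Gm12195, Smim6, Lrrc70 and Gm12439 (0.888). Over the 6 RGC libraries alone the closest to Tktl1 were Ryr3, Foxp3, 5330439K02Rik, Gm26786 and Gm15609, and the closest to Capn11 were Gm13584, Zfp607, Tstd2, Gm26779 and Dnm3os, with correlations of 0.989 to 0.996. These points share libraries, depth and 2 genotypes, and Tktl1 and Capn11 were chosen on the genotype contrast, so the correlations are a description only. Ttn, which encodes the giant muscle protein titin, averaged 9.92 CPM in mKO and 3.15 in WT among RGCs, with 11.2 and 3.79 among non-RGCs.

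Tktl1 and Capn11 are known from male germ cells, and other germ cell genes were examined beside them. Of 24 germ cell genes, 5 passed the limit on low values in RGCs and 3 in non-RGCs, and none was called in either fraction. Summed over the 24 genes, normalized reads in RGCs were 232.1, 210.2 and 314.3 in mKO and 195.6, 179.1 and 140.0 in WT, without overlap. Among all genes tested in RGCs, every mKO library lay above every WT library for 24.8%. In non-RGCs the sums overlapped, at 98.63, 100.7 and 80.49 in mKO and 92.93, 67.74 and 83.42 in WT. The sums were not tested. Over all genes tested, 16.3% were called higher and 21.2% lower in RGCs, and 4.18% and 6.43% in non-RGCs. The median log2 difference was 0.547 for the 5 in RGCs, against -0.002 over the 16085 genes tested, and 0.014 for the 3 in non-RGCs, against -0.026 over 15326. Hspa1l, a heat shock gene of spermatids, had 43.6, 56.3 and 64.0 normalized reads in mKO RGCs and 29.4, 40.2 and 36.2 in WT (log2 difference 0.61, adjusted p = 0.0765). Piwil2 had 14.8, 6.45 and 29.2 in mKO and 9.12, 5.43 and 2.33 in WT (1.35, limma adjusted p = 0.13), with overlapping groups. Of the 5 genes in the RGC median, Piwil2 passed the limit only through the mKO group, a route that favours genes that rose. The other RGC differences were 0.55 for Acr, 0.53 for Ddx4 and -0.31 for Tdrd1, and in non-RGCs they were 0.61 for Hspa1l, 0.01 for Acr and -0.44 for Ddx4.

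Among the relatives, 5 of 8 were called in RGCs, where 1 was higher (Capn7) and 4 were lower in mKO (Tkt, Capn10, Capn1 and Capn2). Over the 16085 genes tested in RGCs, 16.3% were called higher and 21.2% lower, and the same 1 and 4 members had groups that did not overlap, against 24.8% of genes above and 28.2% below. The median log2 difference of the 8 was -0.28, beside -0.002 for all genes. All 5 calls were of modest size, from 1.17-fold to 1.504-fold.

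Tkt was the most abundant transketolase by far, and it fell in mKO RGCs. The mKO RGC libraries stood at 1693, 1769 and 1754 normalized reads of Tkt and the WT libraries at 2485, 2573 and 2796. The groups were well apart, with a difference several times the spread within either. This was a log2 difference of -0.59 (SE 0.0600, 95% interval -0.73 to -0.45, adjusted p = 0.00084), a 1.504-fold lower level. In non-RGCs the values were 1600, 1997 and 2659 in mKO and 2408, 2606 and 2912 in WT. Library C of mKO lay within the WT range, and the difference of -0.37 was not called (SE 0.175, adjusted p = 0.191). Without that library, the shallowest of the series, Tkt was called lower in non-RGCs (-0.56, adjusted p = 0.0423, limma). It was not called when any other library was left out (adjusted p = 0.203 to 0.429). Nor was it called with the GC and coverage trends removed (-0.12, adjusted p = 0.574).

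Tktl2, on chromosome 8, was seen in RGCs only. The mKO RGC libraries held 21, 10 and 7 reads and the WT libraries 6, 10 and 1, with overlapping groups. The fitted difference was 1.01 on the log2 scale (SE 0.683, 95% interval -0.60 to 2.62, adjusted p = 0.279), and Tktl2 was tested only because the mKO mean of 11.4 passed the limit, with a WT mean of 6.03. No read of Tktl2 was found in any of the 6 non-RGC libraries, which allows up to 0.234 to 0.420 CPM in each. The 5 RGC libraries other than WT C, at 0.487 to 1.61 CPM, were above those limits, and WT C was below them at 0.0943.

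Capn7, a calpain with domains that bind the membrane-sorting machinery, was the relative that rose. It stood at 1592, 1579 and 1539 normalized reads in mKO RGCs and at 1314, 1289 and 1306 in WT. The spread within each genotype was narrow and the groups were well apart. Fitted on the log2 scale, the difference was 0.27 (SE 0.0476, 95% interval 0.16 to 0.38, adjusted p = 0.00514). In non-RGCs Capn7 stood at 1124, 1114 and 970 in mKO and 1102, 1070 and 1127 in WT, with no call (-0.04, 95% interval -0.31 to 0.23). Its exons share 116 bases with those of Sh3bp5 on the opposite strand, and whether counting used strand is not given in the sources used here.

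Capn10, a calpain whose human counterpart has been studied as a diabetes gene, fell in RGCs. It stood at 741, 744 and 747 normalized reads in mKO and at 1011, 941 and 1049 in WT. mKO differed from WT by -0.43 on the log2 scale (SE 0.0615, adjusted p = 0.00241), with all mKO libraries below all WT libraries. In non-RGCs all mKO libraries were again below, at 741, 707 and 782 against 845, 850 and 1046, but the difference of -0.29 was not called (SE 0.136, adjusted p = 0.184).

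The classical calpains Capn1 and Capn2 were lower in mKO RGCs by small amounts. Capn1 stood at 389, 397 and 400 normalized reads in mKO and at 634.5, 566 and 427 in WT, where library C came close to the mKO range. The log2 difference was -0.44 (SE 0.142, adjusted p = 0.0488). Capn2 stood at 1633, 1698 and 1675 in mKO and at 2061, 2044 and 1770 in WT, with a log2 difference of -0.23 (SE 0.0707, adjusted p = 0.0412). Both calls were lost when any RGC library other than WT C was left out, with adjusted p up to 0.13 and 0.129, and were stronger without WT C (adjusted p = 0.000317 and 0.000595). Both were also lost on a scale of total reads, where Capn1 had a difference of -0.31 (adjusted p = 0.117) and Capn2 one of -0.11 (adjusted p = 0.248). RGC markers were lower too, with 10 of 12 called lower in mKO RGCs (21.2% of all genes; 2 of 12 once the GC and coverage trends were removed) and sums of 23380 to 24510 normalized reads against 32400 to 35030 in WT, and their part in the values of Capn1, Capn2 and Capn5 was not tested. Capn1 shares 394 exon bases with Gm10814 on the opposite strand.

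Capn5, a calpain whose human counterpart is mutated in an inherited eye inflammation, was not called. It stood at 1219, 1140 and 1132 normalized reads in mKO RGCs and at 1720, 1851 and 982 in WT, so that WT library C lay below every mKO library and the other 2 above. The log2 difference was -0.33 (95% interval -0.86 to 0.20, adjusted p = 0.282). Without WT C it was -0.62 (adjusted p = 0.000102). That library also stood apart in other markers, with a progenitor sum of 24810 normalized reads against 14940 and 15820 in WT A and B, and a photoreceptor sum of 10720 against 7690 and 7800. The RGC marker sum was 32400 there, against 33980 and 35030. The part of cell makeup in the Capn5 values was not tested.

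**Figure D2:**
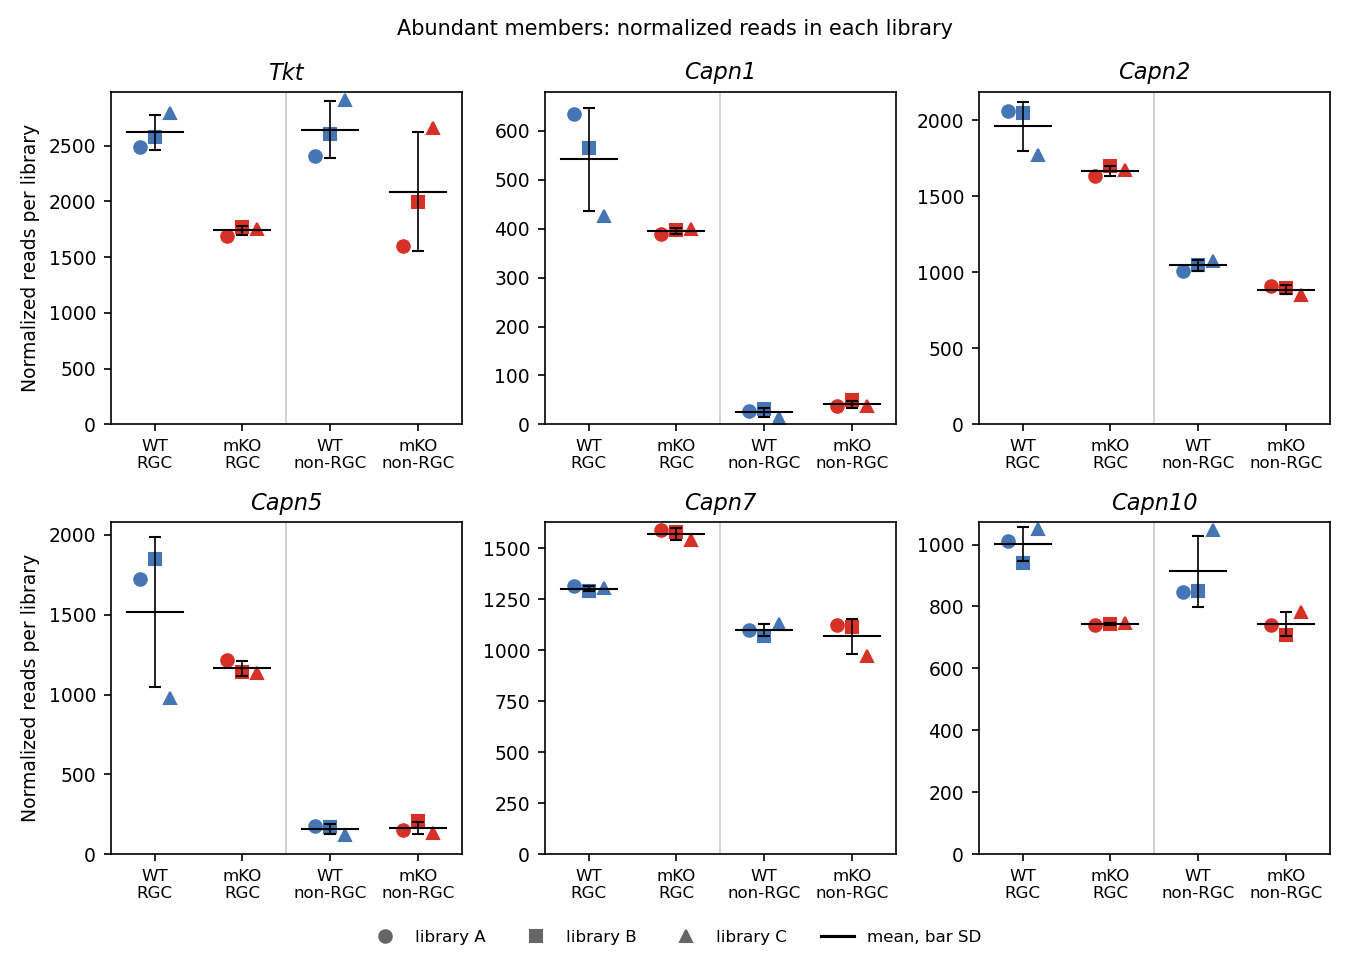
Normalized reads of the 6 more abundant relatives in each library, by genotype and fraction, with symbols for libraries A, B and C, lines at the mean and bars for the SD (n = 3); the axes start at 0 and the 2 fractions were scaled separately. Tkt, Capn1, Capn2 and Capn10 were lower and Capn7 higher in all mKO RGC libraries, and WT library C was lowest of the 6 RGC libraries for Capn5.

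Capn6, a calpain without the catalytic cysteine that is known to stabilise microtubules, varied most between libraries of one group. It stood at 299, 47.0 and 89.4 normalized reads in mKO RGCs and at 133, 545 and 14 in WT. The range within WT spanned that of mKO, and no difference was called (log2 difference 0.08, SE 1.28, adjusted p = 0.966). In non-RGCs it stood at 23.1, 29.7 and 11.3 in mKO and at 39.7, 192 and 13.6 in WT (-1.22, SE 0.789, adjusted p = 0.328). The interval in RGCs, from -2.94 to 3.10, does not limit a change of Capn6 to a small one. The 8 mesenchyme genes, which include the fibrillar collagens, moved with it. Their sums in RGCs were 6973, 622 and 2141 normalized reads in mKO and 5001, 15900 and 238 in WT, in the same order over the 6 libraries as Capn6. In non-RGCs they were 489, 636 and 237 in mKO and 718, 6707 and 157 in WT, where only the lowest 2 libraries changed places. None of the 8 mesenchyme genes was at 0 in all libraries of a group, and none was called in either fraction. The skeletal muscle sums spanned less, from 142 to 377. In RGCs they were 281.0, 200.1 and 210.8 in mKO and 280.8, 376.7 and 193.7 in WT, again in the order of Capn6. In non-RGCs they were 214.2, 223.5 and 245.7 in mKO and 268.0, 344.5 and 141.8 in WT, in another order. The part of mesenchyme or muscle RNA in the Capn6 values was not tested.

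**Figure D3:**
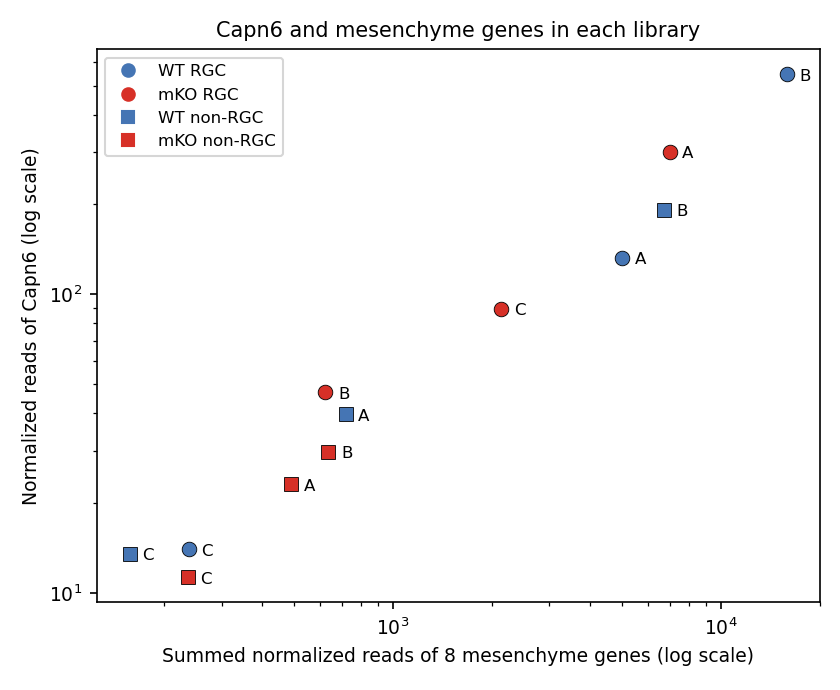
Normalized reads of Capn6 against the summed normalized reads of the 8 mesenchyme genes in each of the 12 libraries (both axes logarithmic; letters name the libraries, colours the genotype and symbols the fraction). Capn6 was highest, at 545, in the RGC library with the highest mesenchyme sum (WT B, 15900), and lay between 11.3 and 14 in the 3 libraries with the lowest sums.

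In non-RGCs, 0 of the 7 relatives tested were called (limma), and 0 had an unadjusted p under 0.05. Capn2 stood at 908, 898 and 853 normalized reads in mKO and 1007, 1049 and 1077 in WT (-0.24, adjusted p = 0.201). Capn5 stood at 153, 206 and 133 in mKO and 179.5, 170.3 and 123 in WT (0.05, adjusted p = 0.902). Capn1 went the other way from its fall in RGCs, with 37.0, 48.9 and 36.7 normalized reads in mKO and 27.1, 31.9 and 13.6 in WT (0.80, 95% interval -0.02 to 1.63, adjusted p = 0.177). Capn1 also had the highest ratio of RGC over non-RGC levels among the 9 members with reads in non-RGCs, and the part of the RGC markers that were higher in mKO non-RGCs was not tested.

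**Figure D4:**
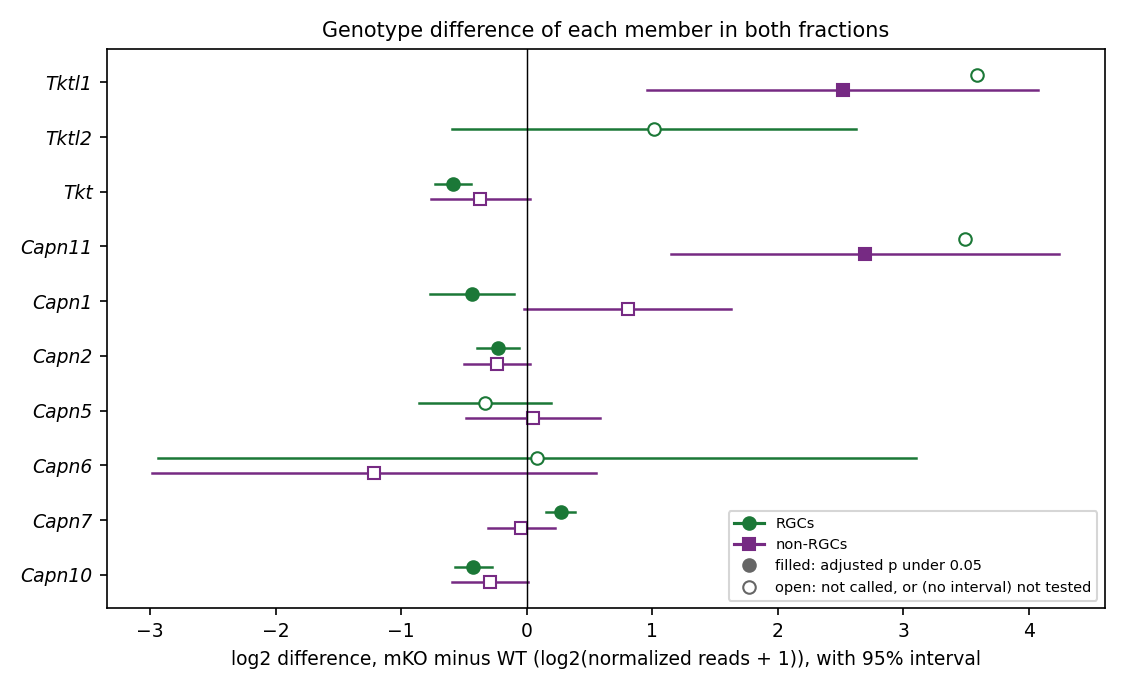
Log2 difference between mKO and WT of the 10 genes in RGCs (circles) and non-RGCs (squares) on the log2(normalized reads + 1) scale; lines are 95% intervals, filled symbols have an adjusted p under 0.05, and Tktl1 and Capn11 have no interval in RGCs because they were chosen there. The calls in RGCs lie between -0.59 (Tkt) and 0.27 (Capn7), and Tktl2 was not tested in non-RGCs.

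No relative was called for a difference between the fractions in its genotype effect. Over 16517 genes the test of that difference in all 12 libraries called 0.0969%, and it called 0 of the 8 relatives by limma, with 2 at an unadjusted p under 0.05. These were Capn1, with a difference of -1.24 between the RGC and non-RGC effects (SE 0.386, adjusted p = 0.424), and Capn7, with 0.31 (SE 0.116, adjusted p = 0.478).

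The size of the genotype difference followed the GC content of the exons of a gene's longest transcript across the transcriptome. Of the 8 relatives, 5 (Capn1, Capn2, Capn5, Capn7 and Capn10) lay along that trend in RGCs. Across the 12806 RGC genes that averaged 50 normalized reads or more, the log2 difference and GC content had a Spearman rho of -0.71, and across 12239 genes in non-RGCs it was -0.511. In the tenth of genes with the lowest GC content the median RGC difference was 0.43, and in the tenth with the highest it was -0.52. Capn7 and Capn6 had 42.2% and 39.5% GC, Capn2 had 51.8%, Tkt 54.0%, Capn5 56.0%, Capn1 57.1% and Capn10 57.9%. With the trends of GC content and read coverage removed from every library, only Tkt among the 8 was still called in RGCs (-0.28, SE 0.0521, adjusted p = 0.0308), and Capn7 had a difference of 0.18 (adjusted p = 0.0715). The differences of Capn10, Capn1, Capn2 and Capn5 were then -0.03, -0.10, 0.00 and 0.02, with adjusted p of 0.733 or more. Tktl1, at 44.6% GC, kept a description of 3.17 in RGCs, and Capn11, at 52.5%, one of 3.50. In non-RGCs their differences were then 2.42 and 2.80, with adjusted p = 0.101 and 0.0961, so that the sizes held and the calls did not.

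**Figure D5:**
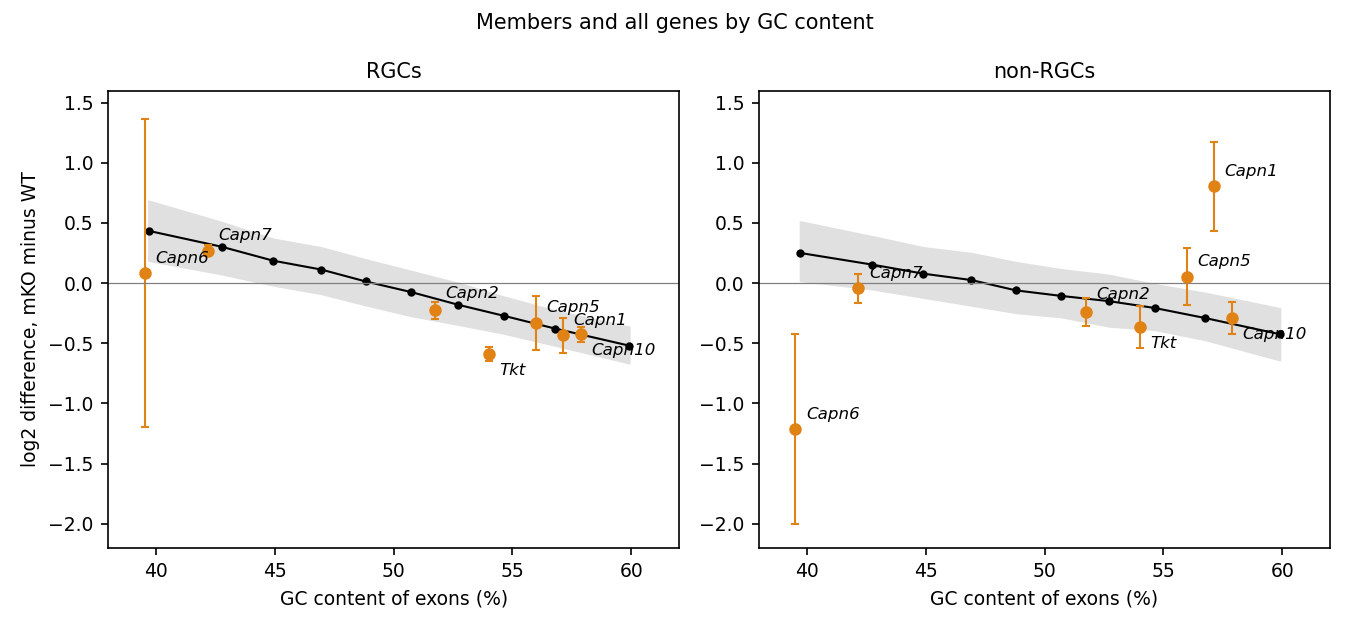
Log2 difference between mKO and WT against the GC content of the exons of the longest transcript (%), for RGCs and non-RGCs. Black points are medians of 10 equal bins of the genes that averaged 50 normalized reads or more. The grey band is the interquartile range, and orange points are 7 relatives with their SE. In RGCs Capn7, Capn2, Capn5, Capn1 and Capn10 lie within the band, and Tkt lies below it.

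The order of the levels was set in RPKM, reads per kilobase of exon at equal depth. In WT RGCs the medians were 27.6 for Tkt, 25.4 for Capn2, 25.1 for Capn5, 21.5 for Capn7, 18.6 for Capn10 and 13.4 for Capn1. Capn2, Capn5 and Capn7 were neighbours whose libraries overlapped, and the other neighbours among these 6 were apart. Capn6 followed at 1.36, then Tktl2 at 0.0875, Capn11 at 0.0697 and Tktl1 at 0.0347, each overlapping with the next. In mKO RGCs Capn7 was first at 28.2, ahead of Capn2 at 22.7 and Tkt at 20.5, with no overlap among the first 6. Capn11 came seventh at 2.73, overlapping with Capn6 at 0.984, and Tktl1 was at 0.590, above Tktl2 at 0.145.

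Capn1 and Capn5 had the highest ratios of RGC over non-RGC levels in both genotypes among the 9 members with reads in non-RGCs, given with no test because the 2 tables were made separately. In WT, Capn1 averaged 43.3 CPM in RGCs and 2.17 in non-RGCs, a ratio of 19.9, and Capn5 averaged 121 and 14.1, a ratio of 8.57. In mKO the ratios were 8.37 and 6.13. Capn2 had a ratio of 1.68 in WT and 1.63 in mKO, and the libraries of the 2 fractions did not overlap for these 3 genes. Capn6 had a ratio of 2.48 in WT, with overlapping libraries, and 5.89 in mKO, without overlap and close to that of Capn5. Tkt, Capn7 and Capn10 had ratios of 0.889, 1.06 and 0.983 in WT.

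Around the classical calpains, 9 of 10 other calpain-system genes were in the table and 4 were tested. In RGCs 2 were lower and none was higher, where 21.2% and 16.3% of all genes were. Capns1, the small subunit, stood at 1003, 1055 and 1007 normalized reads in mKO and 1676, 1682 and 1523 in WT (-0.67, SE 0.0610, limma adjusted p = 0.000657). Its partners Capn1 and Capn2 were called lower close to the threshold (adjusted p = 0.0488 and 0.0412, limma). Whether the subunit and its partners moved together was not tested. Capn15 stood at 466, 517 and 585 in mKO and 791, 699 and 659 in WT (-0.46, adjusted p = 0.0157), and it was also the one called in non-RGCs (-0.87, adjusted p = 0.0318, and 0.195 with the trends removed). The inhibitor Cast stood at 192, 151 and 151 in mKO RGCs and 105, 149 and 148 in WT, with no call (0.30, adjusted p = 0.239). Capns1 and Capn15, with 57.3% and 61.1% GC, were not called in RGCs once the GC and coverage trends were removed (adjusted p = 0.204 and 0.882, limma). Neither were Capn1 and Capn2 (adjusted p = 0.733 and 0.98, limma).

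Of 15 pentose phosphate genes, 14 were in the table and 13 were tested. In RGCs 5 were lower (21.2% of all genes), none was higher (16.3% of all genes), and the median difference was -0.03, beside -0.002 for all genes. The oxidative enzymes G6pdx (-0.26, adjusted p = 0.00837), Pgls (-0.69, adjusted p = 0.000924) and Pgd (-0.27, adjusted p = 0.00661) fell, as did Taldo1, the partner of Tkt in the non-oxidative branch (-0.53, adjusted p = 0.00232), and Pgm2 (-0.36, adjusted p = 0.00326). Taldo1 stood at 786, 819 and 784 normalized reads in mKO and at 1080, 1111 and 1278 in WT. With the GC and coverage trends removed 2 of these calls held, Pgls (adjusted p = 0.0363) and Pgd (adjusted p = 0.0403). In non-RGCs none of the 13 was called.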

How the data were processed

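The authors selected poly-A RNA, sequenced it from a single end, aligned reads to mm10 (Ensembl annotation) with STAR 2.3.1z4, counted them per gene with featureCounts and divided by DESeq size factors. The deposited signal is labelled dedup, so duplicate reads may have been removed before counting, which the study's methods do not state. The effect of such a step on levels and fold sizes was not tested. The deposited tables, one per fraction, give for each gene the mean of this signal over the triplicate of each genotype, and the authors' fold change, its log2 value, p-value and adjusted p-value, which were not used. 

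The reads of each library were recovered from the printed decimals of the means, with exactly 1 solution for 100% of genes with reads (22931 to 25690 per group). The letters A to C are not replicate numbers. Recovered reads over size factors were tested with limma 3.58.1 on log2(value + 1) with its trend of variance against mean, for genes averaging 10 or more in at least 1 genotype, Benjamini-Hochberg adjustment over all genes of a table, calls at an adjusted p under 0.05. On simulated libraries with 200 genes changed by a fold of 2, 200 were recovered in RGCs and 199 in non-RGCs, with 18 false calls among 15871 genes and 16 among 15098. These totals hold no result for changed genes of low level or of wide spread between libraries. They cannot show whether a change would be recovered in genes with reads as few and as variable as those of Tktl1, Tktl2 and Capn11. The same holds for genes that vary between libraries as Capn6 did. With a simulated GC trend added the false calls were 1449 among 15869 genes in RGCs and 1397 among 15129 in non-RGCs, and with GC then removed they were 11 and 14. Libraries came from separate RNA extractions; p-values measure only the spread between them, which may be partly technical, and intervals and floors cover counting error or this spread only. The floor is 3 reads in a library.

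Members and gene lists were chosen with earlier results of these data known. Members were named, with genes called in the calpain, pentose phosphate and germ cell lists and Capns1, Cast, G6pdx and Taldo1, the 5 neighbours on either side, and the 5 genes most alike in pattern. The levels of Ttn and the germ cell genes that were tested but not called were added after their values were seen. Some genes and lists are not reported here. Positions, exon lengths and GC content (96.7% of genes matched) are from GENCODE M21 on GRCm38, the build mm10 names, and lengths may differ from the authors' annotation. Alternatives were pseudocounts of 0.5 and 5, other filters and scales, voom, removal of GC (loess, span 0.3) and coverage trends, and leaving out each library. Python 3.11.15 and R 4.3.3 were used.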

Additional observations from a re-analysis of the deposited data

Results flagged for a closer look

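Capn1 is listed because every mKO library was below every WT library in RGCs and above every WT library in non-RGCs. The difference of the 2 log2 differences was -1.24 (SE 0.386, 95% interval -2.07 to -0.41, adjusted p = 0.424 by limma over 16517 genes), so the difference between fractions was not called. Groups of 3 libraries were not examined for outlying samples.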

How the results depend on the processing

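In RGCs, 5 relatives were called at either pseudocount, with the filter on the mean over 6 libraries, with the median set to 0 and with voom weights. The number fell to 3 with no filter or on the scale of total reads, to 1 (Tkt) with the GC trend removed and to 1 with the GC and coverage trends removed, and was 3 to 6 when a library was left out. The 2 calls in non-RGCs became 1 at a pseudocount of 0.5 and 0 with the GC trend or both trends removed, and 0 to 2 were made with a library left out (1 being Tkt). Tktl1 in RGCs, a value with no test, was 2.16 at a pseudocount of 5. The number for the difference between fractions was 0 throughout. Calls over all genes were 6027 in RGCs (2622 higher) and 1626 in non-RGCs (641 higher), and became 2335 and 232 without the GC trend, 979 and 233 without both trends, and 3770 to 8183 and 141 to 1614 with a library left out. The scale of total reads put the median of all genes at 0.12 in RGCs and 0.15 in non-RGCs (-0.0024 and -0.0257 otherwise) and moved the share of calls that were higher from 43.5% to 63.3% and from 39.4% to 74.8%, and removing the GC trend moved the latter to 59.5% and removing both trends to 55.4%. Directions turned for uncalled differences of Capn5, Capn6, Capn7 and Capn10: Capn5 in RGCs was 0.0172 with both trends removed, Capn6 in RGCs -0.34 and -0.53 without the GC trend and without both trends, Capn10 in non-RGCs 0.0172 and 0.029 likewise, and Capn7 in non-RGCs 0.13 on total reads. Capn7 in RGCs, called at 0.27, was -0.0401 with the GC trend alone removed. With a library left out the ranges were -1.31 to 1.29 for Capn6 in RGCs, and -0.12 to 0.19 for Capn5 and -0.0804 to 0.0259 for Capn7 in non-RGCs. Apart from what the removals themselves construct, the cause was not tested. With the shallowest library at 7139633 reads, Tktl1, Tktl2 and Capn11 rest on 106 reads or fewer per library. No paired analysis was possible because the recovered libraries carry no replicate number.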
